A study of Mus musculus with 10 samples.

Results

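The SLC38 family of sodium-coupled neutral amino acid transporters was examined in whole brains of wildtype (Abcc5+/+) and Abcc5-knockout (Abcc5-/-) mice of the FVB/NJ strain, with 5 libraries in each group. Abcc5 encodes an efflux transporter of the ABC family, and the study compared the brain transcriptomes of the 2 genotypes. No treatment is named for either group, and ages and sexes of the animals are not given in the sources used here. RNA came from homogenized whole brain frozen on dry ice, and polyadenylated RNA was converted to libraries with a kit that does not mark strand. The members were chosen by gene symbol: Slc38a1, Slc38a2, Slc38a3, Slc38a4, Slc38a5, Slc38a6, Slc38a7, Slc38a9 and Slc38a10. These 9 genes occupy 10 of the 25050 rows of the deposited count table, because the symbol Slc38a9 stands on 2 rows. No measured value or threshold picks single members, but the family was selected on a measured value, the fall of Slc38a2 between the genotypes in these libraries, so the genotype values below describe the members and serve as support for nothing else. Slc38a8 and Slc38a11, the other family genes of the table, are given for comparison of levels.

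SLC38 proteins carry glutamine, alanine, asparagine and related small neutral amino acids across the plasma membrane or the lysosomal membrane. In brain, glutamine made by astrocytes from synaptic glutamate leaves the astrocyte through system N carriers, which can run in both directions, and enters neurons in part through system A carriers, where it is used to remake glutamate and GABA. Slc38a1, Slc38a2 and Slc38a4 encode system A carriers, Slc38a3 and Slc38a5 encode system N carriers, and Slc38a7 and Slc38a9 encode lysosomal proteins, the latter an arginine sensor upstream of mTORC1. Slc38a2 is also known in cultured cells for rising when amino acids are withdrawn or when the medium is made hypertonic.

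The promoter of Slc38a2 is shown because Slc38a2 is the member that passed the test of genotype, and that of Slc38a6 because it holds the only motif match among the member windows. Each sequence is the 250 bases before the annotated start, 5′ to 3′ on the gene's strand, from RefSeq on GRCm38.p6. Slc38a2 lies on the minus strand at chr15:96699729-96699978 and Slc38a6 on the plus strand at chr12:73286598-73286847. Capitals mark a match to the cyclic AMP response element.
Slc38a2: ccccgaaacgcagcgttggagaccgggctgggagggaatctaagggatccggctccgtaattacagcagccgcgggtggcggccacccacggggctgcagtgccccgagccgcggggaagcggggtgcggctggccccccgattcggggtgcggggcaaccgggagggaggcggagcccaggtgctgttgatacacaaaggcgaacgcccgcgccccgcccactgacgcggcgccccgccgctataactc
Slc38a6: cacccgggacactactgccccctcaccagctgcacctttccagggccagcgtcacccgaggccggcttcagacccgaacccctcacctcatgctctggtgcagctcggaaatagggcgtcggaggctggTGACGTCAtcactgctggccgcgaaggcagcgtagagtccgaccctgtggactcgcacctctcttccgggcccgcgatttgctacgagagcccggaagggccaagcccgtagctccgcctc
Windows of 300 bases, from 250 before to 50 after a start, were found for 7 of the 9 members, with 9 windows in all. They were searched on both strands for TGATGNAA (the composite C/EBP-ATF element of amino acid response genes), TGACGTCA (the cyclic AMP response element) and TCACGTGA (an E-box of the kind bound by TFEB). Over 32851 windows of the same length, 3.97% held TGATGNAA, 1.79% held TGACGTCA and 0.974% held TCACGTGA, and none of the 3 motifs overlaps another in the window shown. The match in the Slc38a6 window begins at position -121 relative to the start, and the Slc38a2 window held none of the 3. The Slc38a2 window was 73.0% G or C, at the 94.3rd percentile of all windows, whose median was 52.7%. A match is a description of the letters, and its absence says nothing of any factor.

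The libraries held between 7731294 and 23588335 counts each. Wildtype 1 and knockouts 2 and 4 were deeper, with at least 19795743 counts, and the other 7 held at most 11479995. Abcc5 itself fell from 311.1 ± 12.6 to 218.8 ± 5.95 CPM (counts of the gene per 1000000 counts of its TMM-scaled library; mean ± SD, n = 5 in each group), a log2 fold change of -0.51 (SE 0.041, edgeR adjusted p = 6.35e-06). Over the 14526 genes tested, the median log2 fold change was 0.0042. No marker from the lists of brain cell types was at 0 in any library. Knockout 3 stood apart: its 11 cerebellar granule and Purkinje cell markers summed to 239.3 CPM, against 1494 to 1780 CPM in the other 9 libraries. Each of the 11 was lower there than in every other library. Fat2 measured 2.11 CPM against 208.2 to 288.5 CPM, and Calb1, which differed less, 130.2 CPM against 248.7 to 292.5 CPM. Knockout 3 is described as whole brain like the others, and how much cerebellum it held was not tested. Microglial markers summed to 198.0 to 218.5 CPM in wildtype and 234.5 to 282.0 CPM in knockout, and 2 of 9 were called higher, where 0.213% of all tested genes were. Markers of meninges and fibroblasts summed to 204.8 to 235.5 CPM in wildtype and 155.1 to 213.1 CPM in knockout, with none of 8 called. The part that any of these marker differences has in the values of the transporters was not tested. In whole tissue, fewer cells of a type and less RNA per cell cannot be told apart. Nothing in the sources used here says beyond the sample titles that the brains came from separate animals, so p-values measure the spread between these samples.

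Slc38a2, a system A carrier found in many tissues, was the member that fell. In the wildtype libraries 1 to 5 it measured 249.3, 216.6, 249.9, 250.6 and 254.9 CPM. In the knockout libraries 1 to 5 it measured 198.8, 200.9, 180.1, 200.02 and 209.4 CPM. Every knockout library lay below every wildtype library, with wildtype 2 the lowest of its group and knockout 3 the lowest of all. The mean fell by 19.0%, from 244.3 ± 15.7 to 197.8 ± 10.8 CPM (SD, n = 5), which is a log2 fold change of -0.30 (SE 0.053, 95% interval -0.42 to -0.19). The edgeR quasi-likelihood test gave an adjusted p of 0.00891, and the authors' deposited table gives a log2 fold change of -0.30 with an adjusted p of 0.00772. Without knockout 3, the log2 fold change was -0.27 and the edgeR adjusted p was 0.00349. The difference in mean log2 CPM was -0.31 within the 3 deeper libraries and also -0.31 within the 7 shallower ones. Fitted on the 7 shallower libraries alone, the value was -0.31 with an edgeR adjusted p of 0.109. The deeper group holds only 1 wildtype library and was not fitted alone.

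Slc38a2 was the 1 called row among the 9 member rows tested, where 1.18% of all tested genes were called in either direction (171 of 14526) and 0.964% were called lower and 0.213% higher. It was also the only member row whose groups did not overlap, against 4.19% of all tested genes. Of the 9 rows, 5 had a log2 fold change below 0, as did 48.4% of all tested genes. The median over the rows was -0.05, beside 0.0042 over all genes, and the median absolute value was 0.093 beside 0.078. These counts hold the value for which the family was taken up, so nothing is read from them. The edgeR adjusted p of the other 8 tested rows ran from 0.367 to 0.932.

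**Figure D1:**
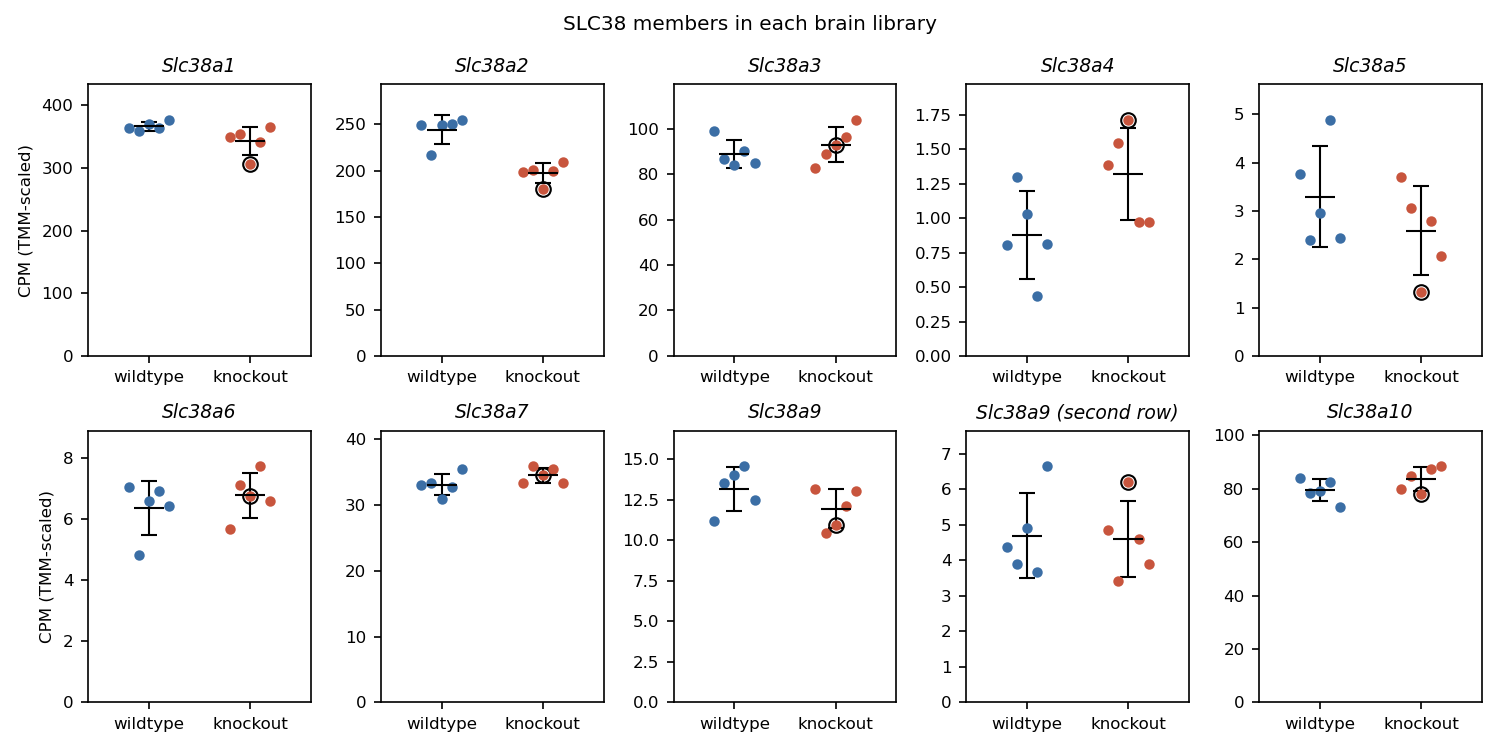
CPM of each member row in each of the 5 wildtype and 5 knockout libraries, on axes that start at 0, with the group mean ± SD as a black bar and knockout replicate 3 circled. Slc38a2 is the panel in which no knockout point (180.1 to 209.4 CPM) reaches the wildtype points (216.6 to 254.9 CPM).

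Slc38a1, the other abundant system A carrier and one found chiefly in neurons, measured 363.5, 358.6, 370.3, 364.2 and 377.0 CPM in wildtype libraries 1 to 5. It measured 350.4, 354.0, 306.6, 341.7 and 365.1 CPM in knockout libraries 1 to 5. Knockouts 1 to 4 lay below the lowest wildtype library and knockout 5 lay inside the wildtype range. The means were 366.7 ± 7.06 and 343.6 ± 22.3 CPM (SD, n = 5), a log2 fold change of -0.09 with a 95% interval from -0.19 to 0.0051 and an edgeR adjusted p of 0.367. The value depended on knockout 3, where Slc38a1 was lowest: without that library it was -0.05, with an edgeR adjusted p of 0.461. The coefficient of variation was 1.93% in wildtype and 6.49% in knockout.

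Slc38a4, a system A carrier best known from liver and placenta, was near the limit of detection. Its counts in wildtype libraries 1 to 5 were 16, 13, 8, 5 and 7, and in knockout libraries 1 to 5 they were 12, 34, 13, 23 and 8. That is 0.879 ± 0.320 CPM in wildtype and 1.32 ± 0.336 CPM in knockout (SD, n = 5). The ranges, 0.44 to 1.30 and 0.97 to 1.71 CPM, overlapped. The gene did not pass the filter on low counts and was not tested.

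Slc38a1, Slc38a2 and Slc38a4 lie side by side on chromosome 15. Positions are those of the authors' table, and its build is not given in the sources used here. Slc38a1 (ENSMUSG00000023169) spans 96401849 to 96473344, Slc38a2 (ENSMUSG00000022462) spans 96517825 to 96530129 and Slc38a4 (ENSMUSG00000022464) spans 96825254 to 96886387. The counts are per whole gene and carry no split into exons or untranslated parts. Of the nearest tested genes on both sides, Arid2, a subunit of the PBAF chromatin remodelling complex, was lower in knockout: 76.7 ± 3.35 against 66.6 ± 1.47 CPM (SD, n = 5), log2 fold change -0.20, SE 0.043, edgeR adjusted p = 0.0338. Its groups did not overlap, but the call was lost without any single one of wildtypes 3, 4 and 5 and knockouts 1, 2, 4 and 5, with adjusted p of 0.0595 to 0.1004 in edgeR. It was also lost with upper-quartile scaling (0.0526) with no filter on low counts (0.0543) and in the 7 shallower libraries alone (0.187). Scaf11 had a log2 fold change of -0.0047, Amigo2 of -0.02 and Fam113b of 0.025, and none of these passed the edgeR test. 

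Slc38a3 encodes the system N carrier of astrocytes that releases glutamine. It lies on chromosome 9 at 107552970 to 107569705 (ENSMUSG00000010064). It measured 99.2, 86.6, 84.2, 90.3 and 84.8 CPM in wildtype libraries 1 to 5. The knockout libraries 1 to 5 gave 82.9, 89.1, 92.9, 96.3 and 103.9 CPM. The ranges overlapped, with knockout 5 highest and knockout 1 lowest of all 10 libraries. The log2 fold change was 0.06, with a 95% interval from -0.07 to 0.19 and an edgeR adjusted p of 0.717, and a log2 fold change of -0.30 or 0.30 lies outside that interval. The sign differed between the depth classes: the difference in mean log2 CPM was -0.10 within the 3 deeper libraries and 0.10 within the 7 shallower ones. The deeper class holds only 1 wildtype library, wildtype 1, which had the highest wildtype value (99.2 CPM). An effect of depth therefore cannot be told apart from that library. Leaving out each library in turn gave 0.015 to 0.10. The sum of 9 astrocyte markers ran from 5503 to 5792 CPM in wildtype and from 5501 to 6043 CPM in knockout. In knockout 3 this sum was 5989 CPM, of which the marker Slc1a2 held 3042 CPM. The mean log2 CPM of the 9 markers was lowest in knockout 3, at 8.43, against 8.55 to 8.74 in the other libraries.

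Slc38a5, the other system N carrier, lies on the X chromosome at 7848259 to 7857305 (ENSMUSG00000031170). Its counts were 75, 24, 23, 56 and 21 in wildtype libraries 1 to 5 and 32, 67, 10, 66 and 17 in knockout libraries 1 to 5. On the CPM scale this was 3.30 ± 1.05 in wildtype and 2.59 ± 0.919 in knockout (SD, n = 5), with overlapping ranges. The log2 fold change, -0.33, was the lowest point estimate of the 9 rows, but its 95% interval ran from -0.82 to 0.15 and its edgeR adjusted p was 0.526. Knockout 3 held the lowest value, 1.32 CPM, and without it the edgeR log2 fold change was -0.23. Leaving out each library in turn gave values from -0.42, without wildtype 2 or without knockout 1, to -0.16, without wildtype 4. Its dispersion stood at the 98.3rd percentile of tested genes, and its interval includes both 0 and the value of Slc38a2.

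Slc38a7 encodes a lysosomal exporter of glutamine and asparagine. It lies on chromosome 8 at 98359820 to 98377439 (ENSMUSG00000036534). It measured 30.8 to 35.4 CPM in wildtype, with a median of 33.0 CPM, and 33.3 to 35.8 CPM in knockout. It was the steadiest member, with a dispersion at the 5.72nd percentile of tested genes. Its log2 fold change was 0.07 with a 95% interval from -0.05 to 0.18 (edgeR adjusted p = 0.590).

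Slc38a9, the lysosomal arginine sensor, is listed on 2 rows of chromosome 13. The first row (ENSMUSG00000047789) spans 113450984 to 113523106, and the second (ENSMUSG00000069056) spans 113523861 to 113525267, starting 755 bases after the end of the first. The first row measured 11.2, 13.5, 14.1, 14.6 and 12.5 CPM in wildtype libraries 1 to 5 and 13.2, 10.5, 10.9, 12.1 and 13.1 CPM in knockout libraries 1 to 5. The second row measured 4.70 ± 1.19 CPM in wildtype and 4.60 ± 1.06 CPM in knockout (SD, n = 5). Both pairs of groups overlapped. The log2 fold changes were -0.14 (95% interval -0.34 to 0.07, edgeR adjusted p = 0.530) for the first and -0.05 (95% interval -0.43 to 0.33, edgeR adjusted p = 0.932) for the second. Together the rows gave 17.9 ± 1.46 CPM in wildtype and 16.6 ± 1.57 CPM in knockout. The second row held 20.1% to 34.8% of the joint count in wildtype and 23.0% to 36.2% in knockout. Whether both rows count the same gene is not given in the sources used here, so the level of Slc38a9 is uncertain by that share.

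Slc38a6 and Slc38a10 are less studied members. Slc38a6 (ENSMUSG00000044712, chromosome 12, 74387766 to 74455036) measured 7.05, 4.81, 6.58, 6.89 and 6.42 CPM in wildtype libraries 1 to 5 and 5.67, 7.11, 6.73, 7.71 and 6.59 CPM in knockout libraries 1 to 5. Wildtype 2 was the lowest of all and the groups overlapped, with a log2 fold change of 0.11 (95% interval -0.14 to 0.36, edgeR adjusted p = 0.717). Without wildtype 2 the log2 fold change was 0.026, and without knockout 4 it was 0.044. Slc38a10 (ENSMUSG00000061306, chromosome 11, 119965274 to 120012660) measured 83.9, 78.5, 79.3, 82.4 and 73.2 CPM in wildtype and 80.02, 84.8, 78.2, 87.6 and 88.4 CPM in knockout, in the same order. The groups overlapped, and the log2 fold change was 0.08 (95% interval -0.03 to 0.18, edgeR adjusted p = 0.506).

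Within single libraries, Slc38a2 was lower in knockout relative to each of the other 3 abundant members. This ratio does not depend on library scaling. The log2 ratio of Slc38a2 to Slc38a1 was -0.54, -0.73, -0.57, -0.54 and -0.56 in wildtype libraries 1 to 5 and -0.82, -0.82, -0.77, -0.77 and -0.80 in knockout libraries 1 to 5. The means differed by -0.21, and the groups did not overlap. The log2 ratio to Slc38a3 was 1.46 ± 0.127 in wildtype and 1.09 ± 0.125 in knockout (SD, n = 5), with a lowest wildtype value of 1.32 and a highest knockout value of 1.26. The log2 ratio to Slc38a10 was 1.62 ± 0.123 in wildtype and 1.24 ± 0.048 in knockout, with 1.46 and 1.31 as the values that came closest. These ratios contain the Slc38a2 values given above, for which the family was taken up, and were not tested. How often the ratios of other gene pairs separate the groups was not counted, so nothing is read from the lack of overlap.

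**Figure D2:**
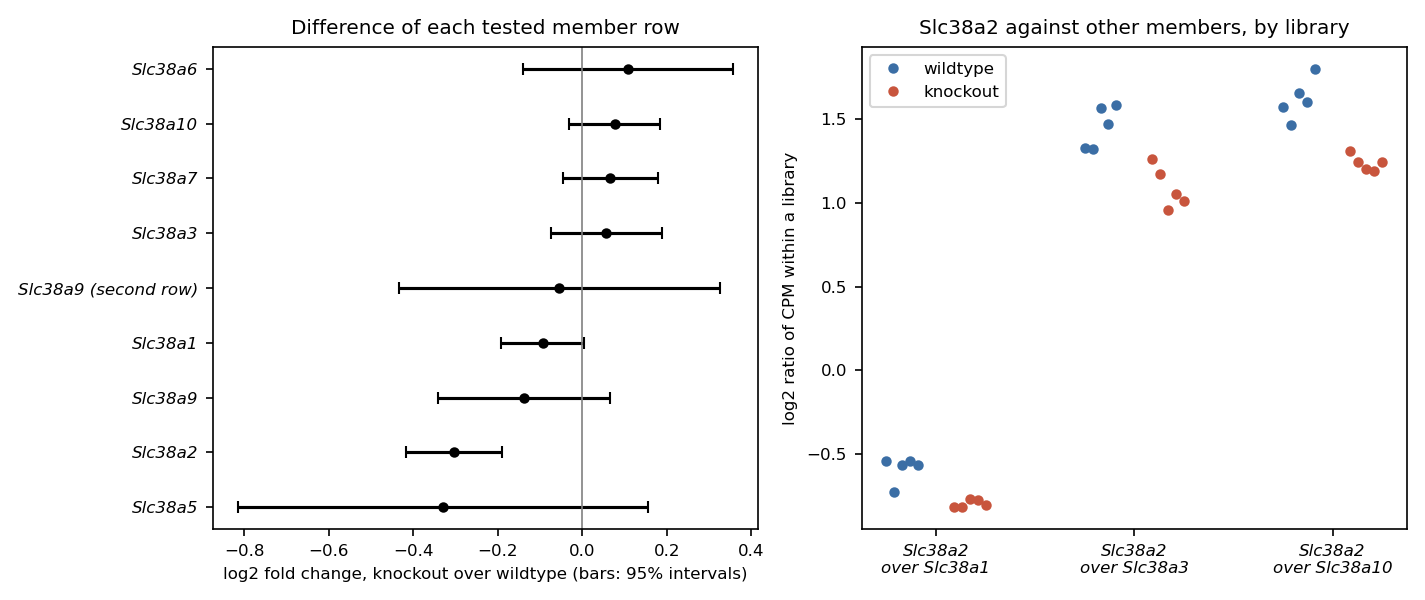
Left, the edgeR log2 fold change of each tested member row, knockout over wildtype, with its 95% interval; right, the log2 ratio of Slc38a2 to Slc38a1, Slc38a3 and Slc38a10 within each of the 10 libraries. The interval of Slc38a2 (-0.42 to -0.19) lies below 0, those of the other 8 rows include 0, and wildtype and knockout points do not overlap in any of the 3 ratios. All 3 ratios contain the Slc38a2 values for which the family was taken up and were not tested.

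Levels of different genes were compared as wildtype CPM per kilobase of the longest coding transcript in GENCODE M21. On this scale Slc38a2 stood at 52.4 ± 3.36 and Slc38a1 at 50.5 ± 0.972 CPM per kb (SD, n = 5), with overlapping ranges of 46.5 to 54.7 and 49.4 to 51.9. Ranked by the mean over all 10 libraries of both genotypes, they stood at the 91.2nd and 91.4th percentiles of the 14142 tested genes with a length. Slc38a3 followed at 28.3 ± 1.96, Slc38a10 at 17.4 ± 0.911 and Slc38a7 at 9.91 ± 0.483 CPM per kb, each without overlap with its neighbours in the order. The next 4 could not be ordered, since their ranges overlapped: Slc38a9 (both rows) at 2.01 ± 0.163, Slc38a11 at 1.86 ± 0.566, Slc38a5 at 1.66 ± 0.527 and Slc38a6 at 1.62 ± 0.228 CPM per kb. Slc38a4 at 0.223 ± 0.081 and Slc38a8 at 0.098 ± 0.083 CPM per kb were lowest and overlapped each other. Slc38a8 had 0 counts in wildtype 5, which allows up to 0.350 CPM there (3 counts, counting error only). In knockout, Slc38a2 stood at 42.5 ± 2.31 and Slc38a1 at 47.3 ± 3.07 CPM per kb, again with overlapping ranges (38.6 to 44.9 and 42.2 to 50.3). With the length of all merged exons, a choice made after seeing the data, Slc38a2 (27.6) exceeded Slc38a1 (21.3 CPM per kb) in wildtype without overlap, so the order of these 2 depends on the gene model.

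**Figure D3:**
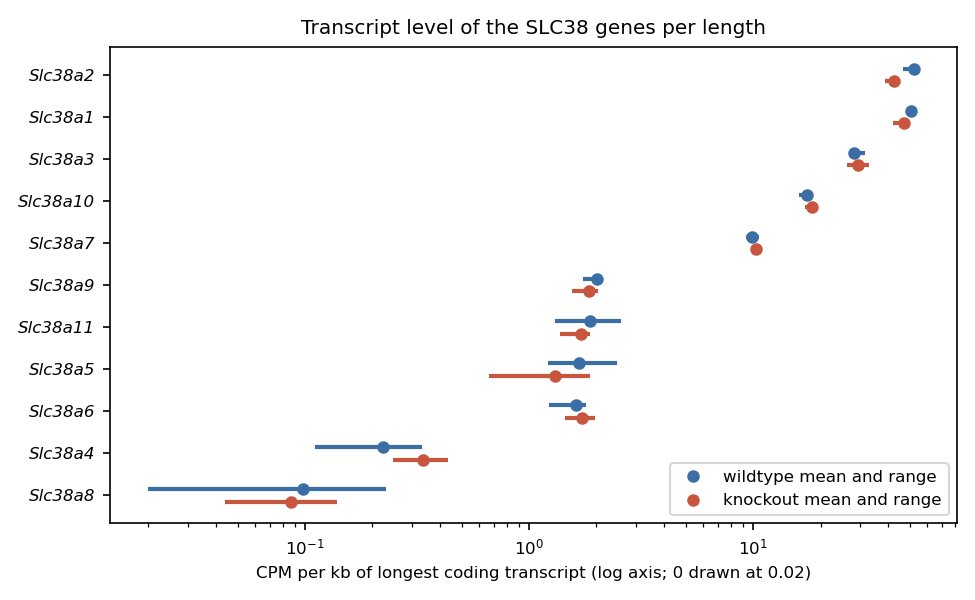
Level of 11 SLC38 genes in CPM per kilobase of the longest coding transcript, on a log axis, as the mean and range over 5 libraries per genotype; a value of 0 is drawn at 0.02. Slc38a2 (52.4) and Slc38a1 (50.5) lead in wildtype, and Slc38a4 (0.223) and Slc38a8 (0.098) are lowest.

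The 5 lists of related genes held no called gene in the main edgeR fit. Of 118 distinct genes tested, 0 were called, beside 1.18% of all genes. With a share that small, 0 calls among 118 genes cannot be told from the background, so nothing is read from that count. At an unadjusted p under 0.05 there were 15 (12.7%, 5 higher and 10 lower), beside 14.8% of all genes. By list these were 1 higher and 1 lower of 22 in the glutamate-glutamine cycle, 2 and 1 of 21 neutral amino acid transporters, 1 and 5 of 35 amino acid response genes, 2 and 2 of 36 lysosomal sensing genes, and 1 and 1 of 9 osmotic response genes. Slc7a5 and Slc6a6, both higher, stand on 2 lists each and are counted in both. The groups did not overlap for 1 (0.847%), beside 4.19%. limma-voom called 0 of the listed genes, and DESeq2 called 2, Slc7a1 and Slc5a3.

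In the glutamate-glutamine cycle and GABA list, 22 of 22 genes were tested, with a median log2 fold change of 0.023. Slc1a2, the main astrocytic glutamate uptake carrier, measured 2277 ± 127 CPM in wildtype and 2428 ± 367 CPM in knockout (SD, n = 5), and its edgeR adjusted p was 0.628. Knockout 3 held the highest value, 3042 CPM, and the log2 fold change of 0.09 was 0.00017 without that library. Slc1a3, the second astrocytic glutamate carrier, had a log2 fold change of 0.04 and an edgeR adjusted p of 0.818. Gad1, which makes GABA from glutamate, measured 520.7 ± 8.85 and 476.6 ± 28.9 CPM, with a log2 fold change of -0.13 and an edgeR adjusted p of 0.184. Slc17a8, a vesicular glutamate transporter, measured 3.04 ± 0.411 and 4.16 ± 1.11 CPM, with an edgeR adjusted p of 0.307.

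Of the other neutral amino acid transporters, 21 of 22 were tested and the median was -0.0011. Slc7a5, the light chain of a large neutral amino acid exchanger, measured 57.2 ± 6.57 in wildtype and 65.9 ± 6.57 CPM in knockout (SD, n = 5; log2 fold change 0.20, edgeR adjusted p = 0.271). Slc7a6, a cationic and neutral amino acid exchanger, differed by -0.16 on that scale (edgeR adjusted p = 0.254). The taurine carrier Slc6a6 and the synaptic vesicle carrier Slc6a17, the most abundant of this list, stood at 0.12 and -0.04 on the log2 scale (edgeR adjusted p = 0.319 and 0.739).

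The amino acid response and ATF4 target list, which covers the stress under which Slc38a2 is known to rise, had 35 of 36 genes tested and a median of 0.0025. Slc7a1, a carrier of cationic amino acids, measured 66.2 ± 2.80 in wildtype and 57.2 ± 4.51 CPM in knockout (SD, n = 5), with groups that did not overlap, a log2 fold change of -0.21 and an edgeR adjusted p of 0.0856. Among the alternatives, Slc7a1 passed the threshold only without knockout 3 (edgeR adjusted p = 0.0365) and by the DESeq2 Wald test (0.0396). Stc2, a secreted glycoprotein, had a log2 fold change of -0.55 at 2.70 ± 0.366 and 1.76 ± 0.525 CPM, with an edgeR adjusted p of 0.180. The abundant tRNA synthetases Aars and Nars had log2 fold changes of 0.03 and 0.01.

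The lysosomal amino acid sensing and mTORC1 list, the setting of Slc38a7 and Slc38a9, had 36 of 36 genes tested with a median of -0.02. The smallest edgeR adjusted p was 0.234, that of Fnip2, a folliculin partner, at a log2 fold change of -0.19. Lamtor1, an anchor of the Ragulator complex that the table lists as 2400001E08Rik, had 0.13 (edgeR adjusted p = 0.246). The abundant Atp6v1a and Lamp1 had -0.05 and 0.04. In the osmotic response list of 9 genes, Slc5a3, the sodium-coupled myo-inositol carrier, measured 83.9 ± 11.7 in wildtype and 63.6 ± 7.22 CPM in knockout (SD, n = 5), with a log2 fold change of -0.40, SE 0.093 and an edgeR adjusted p of 0.0522. Slc5a3 passed the threshold with no filter on low counts (edgeR adjusted p = 0.0078) and by the DESeq2 Wald test (0.00662). It also passed without wildtype 1, wildtype 2, knockout 1 or knockout 3 (edgeR adjusted p of 0.0222 to 0.0467). It did not pass without any other single library (0.0989 to 0.147) or in the 7 shallower libraries (0.190). Nfat5, the osmotic response factor, had -0.05 and Hspa4l -0.10, with edgeR adjusted p of 0.725 and 0.457.

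**Figure D4:**
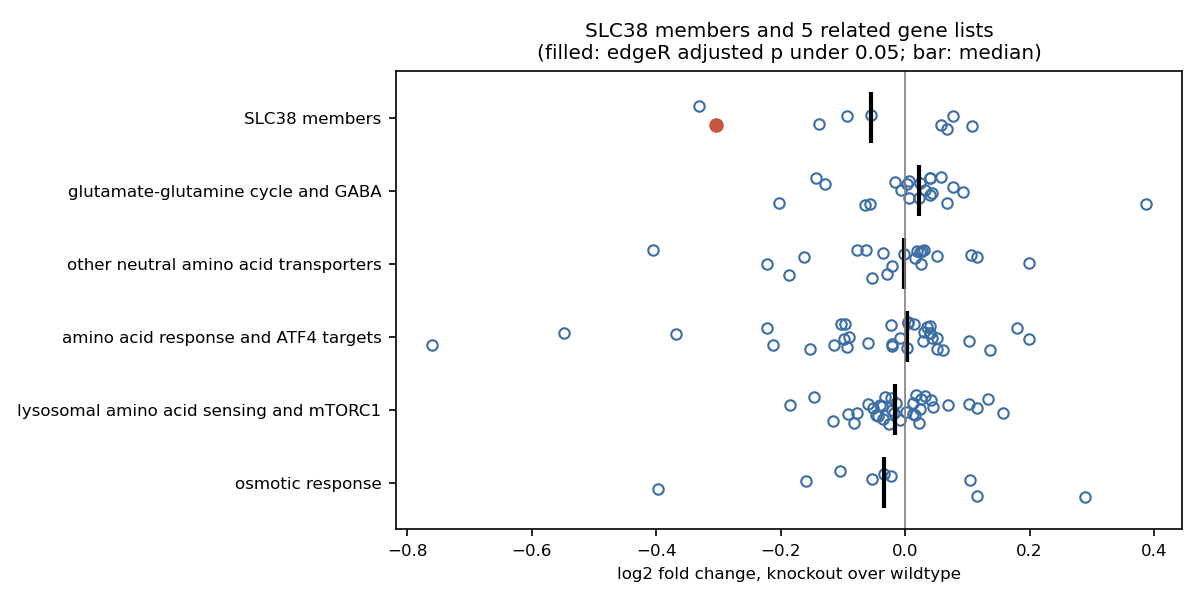
Log2 fold change, knockout over wildtype, of the 9 tested member rows and of the tested genes of the 5 related lists, each point a gene, filled where the edgeR adjusted p is under 0.05, with the median as a bar. Slc38a2 is the only filled point, and the medians of the 5 lists lie between -0.03 and 0.02.

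Genes whose library-to-library variation was most like that of Slc38a2 were ranked by Pearson's r of log2 CPM after removing each group's mean, over 10 libraries and 10292 genes at 10 CPM or more. The leading 5 were Klraq1 (0.94), Zcchc2 (0.94), Sema4b (0.93), Zbtb40 (0.92) and Mfsd7b (0.91), where the 5th and 95th percentiles of all genes were -0.60 and 0.62. The points share libraries, depth and scaling, and the values are a description. Without knockout 3, 2 of these 5 were still among the leading 5. A ranking without wildtype 2, the lowest wildtype library for Slc38a2, is not given here. How far that library carries the list was not tested. Zcchc2 was called lower, at 42.4 ± 1.77 in wildtype and 35.2 ± 1.13 CPM in knockout (SD, n = 5; log2 fold change -0.26, edgeR adjusted p = 0.0166). That call was lost without wildtype 4, wildtype 5 or knockout 4 (edgeR adjusted p of 0.0667, 0.0575 and 0.0515). A fit of the 7 shallower libraries also lost it (0.127). Zbtb40 had -0.44 with an edgeR adjusted p of 0.0522, which ran from 0.00925 to 0.137 when each library was left out in turn. Mfsd7b had -0.17, Klraq1 -0.02 and Sema4b 0.03.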

How the data were processed

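Counts per gene for 10 libraries were deposited by the authors in 1 table for the whole series. Per the submitters' processing notes, TopHat2 2.0.6, TopHat, HTSeq, edgeR and limma were used; their roles, settings, genome build and annotation are not given in the sources used here. The authors' table also holds deposited log2 fold changes and adjusted p-values, of which 629 and 8 cells were damaged and not used, and 10 further value columns that were not used. Members and lists were chosen with earlier results of these data known.

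Genes were filtered with filterByExpr (minimum count 10, minimum total 15), scaled by TMM (factors 0.982 to 1.01) and tested by edgeR 4.0.16's quasi-likelihood test of genotype in R 4.3.3, with p-values adjusted by Benjamini-Hochberg across the 14526 genes tested and a threshold of 0.05. CPM is the deposited count per 1000000 counts of tested genes in the library, with the total multiplied by the TMM factor. Intervals are 95% from the fit. Counting without strand can mix overlapping antisense genes. The common biological coefficient of variation was 0.071, and replicate libraries differed by more than counting noise (chi-square per degree of freedom 1.29 to 12.8). On data simulated from these means, with the common dispersion given to every gene, 14435 genes passed the filter. The test recovered 88 of 96 such genes with a 1.5-fold change and 97 of 97 with a 2-fold change. It called 12 of 14242 unchanged genes. Both folds exceed those of the tested members, and dispersion differs between genes. These counts therefore do not measure how well changes of the members are recovered.

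Beside the members, genes were named by rule: Abcc5, the other SLC38 genes, the called genes, the 2 smallest p and the 2 highest levels of each list, the nearest tested neighbours of the chromosome 15 members, and the 5 genes most like Slc38a2. Alternatives were DESeq2 1.42.0 size factors and its Wald test, upper-quartile scaling, no filter, 1 CPM in 5 libraries, limma 3.58.1 (voom), a threshold of 0.1, a replicate block, leaving out each library, and the 7 shallower libraries alone. Marker lists of other cell types are given only as sums. The summed CPM of blood markers ran from 53.5 to 87.5 in wildtype and 69.8 to 101.5 in knockout, of endothelial markers from 256.6 to 272.4 and 254.8 to 295.2, of choroid plexus markers from 555 to 659 and 534 to 654, of neuronal markers from 6280 to 6364 and 6161 to 6675, of inhibitory neuron markers from 1167 to 1198 and 1117 to 1185, and of oligodendrocyte markers from 6756 to 7246 and 6253 to 7593.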

Additional observations from a re-analysis of the deposited data

Results flagged for a closer look

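Of 24 groups of 5 libraries examined, 2 held a library far from the others, where chance gives about 1 in 20 groups. With 24 groups, a count of 2 cannot be told from that share, so nothing is read from the count. Both were wildtype 2. Slc38a2 measured 216.6 CPM there, and the nearest wildtype library measured 249.3 CPM, a gap of 0.855 of the group's range. Slc38a6 measured 4.81 CPM there, with the nearest at 6.42 CPM, a gap of 0.718 of the range. Its count there was 48, for which counting error alone is 14.4%, beside a wildtype coefficient of variation of 14.1%. The library lay on the side of the knockout values for Slc38a2.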

How the results depend on the processing

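Slc38a2 kept its direction in all 18 alternatives and passed the threshold in 17. The alternatives reuse the libraries in which the fall of Slc38a2 led to the choice of the family. The tally therefore describes dependence on processing and is no support for the fall. Without each library in turn, its log2 fold change ran from -0.34 to -0.27 and its edgeR adjusted p from 0.00349 to 0.0407; in the 7 shallower libraries it was -0.31 (adjusted p 0.109), and 0 members and 31 genes in all were called there. The labels do not say whether equal replicate numbers pair the samples. Libraries of equal number showed little shared variation (correlations -0.14 to 0.089), and 3 of 10 samples correlated best with their own number. These values cannot exclude a pairing. With the numbers as a block, Slc38a2 was at -0.30 (edgeR adjusted p 0.0265) and 90 genes were called in place of 171. The calls of Arid2 (edgeR adjusted p 0.116) and Zcchc2 (0.0748) were lost with that block. DESeq2 called 261, and leaving out a library gave 76 to 341: 112, 88, 76 and 78 without wildtypes 2 to 5, and 105, 87, 341 and 87 without knockouts 1 to 4. Of the listed genes, 1 was called with no filter, 2 by DESeq2 and 0 to 2 without a library. Reversed signs, all of values near 0 and none called, came in the shallower libraries for Aars (-0.0091), Amigo2 (0.042), Scaf11 (0.0027; 0.012 with upper-quartile scaling), Slc6a17 (0.0033) and the second Slc38a9 row (0.082), and without 1 library for Amigo2 (-0.079 to 0.036), Fam113b (-0.052 to 0.12), Nars (-0.0039 to 0.041), Scaf11 (-0.026 to 0.014), Sema4b (-0.032 to 0.058), Slc1a3 (-0.020 to 0.086) and the second Slc38a9 row (-0.15 to 0.078). The cause was not tested. Low counts limit Slc38a4 and Slc38a8, which were not tested.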
